A study of Mus musculus with 8 samples.

Results

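Nuclear genes for subunits of the respiratory chain and of ATP synthase were followed between tumor-initiating cells (TIC) and CD24- cells sorted from the same mouse mammary tumors. Members were the genes whose single platform symbol belonged to complex I (Nduf genes of the a, b, c, s and v series), complex II (Sdha to Sdhd), complex III (Uqcr genes), complex IV (Cox4 to Cox8 genes) or ATP synthase (Atp5 genes). This gave 81 of the 19938 genes measured, with 35 in complex I, 4 in complex II, 8 in complex III, 17 in complex IV and 17 in ATP synthase. The membership rule reads gene symbols and no difference between fractions, and a gene with several rows on the array was represented by its brightest one.

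The 4 TIC arrays and the 4 CD24- arrays were made from primary breast tumors of MMTV-Neu animals on the FvB strain, whose transgene puts the oncogene Neu (Erbb2) under the mouse mammary tumor virus promoter, active in mammary epithelium. Both fractions of tumors N251, N260 and N283 were hybridised, and cells of N222 and N229 were mixed equally before sorting, so that 5 tumors gave 4 pairs of arrays. The pair of N222 and N229 is called the pool. Which surface markers defined the TIC sort is not stated in the labels. All animals shared strain and genotype, and no treatment, age or normal mammary tissue is given in the sources used here. The growth protocol numbers 2 of the tumors differently from the sample titles, and the titles were followed. RNA was read on Affymetrix Mouse Gene 1.0 ST arrays and the values are log2 intensities, so that a difference of 1 is a doubling of signal.

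The respiratory chain sits in the inner mitochondrial membrane. Complex I takes electrons from NADH and complex II takes them from succinate, and both pass them through ubiquinone to complex III, which reduces cytochrome c. Complex IV hands the electrons to oxygen, and the proton gradient built up by complexes I, III and IV drives ATP synthase. Most subunits are encoded in the nucleus and a small set in mitochondrial DNA, so the holoenzymes need both genomes. Several complex IV subunits exist as a general form and as a form restricted to muscle, testis or lung.

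Leukocyte markers separated the fractions. Lyz2, which encodes the myeloid form of lysozyme, had 6.10, 6.20, 6.04 and 6.99 in the TIC arrays of N251, N260, N283 and the pool, against 13.38, 12.56, 11.70 and 10.78 in the CD24- arrays of the same tumors (limma adjusted p = 0.00173). Of 12 macrophage markers 10 fell in the TIC fraction (limma, adjusted p under 0.05) and 0 rose, and of 8 pan-leukocyte markers 5 fell. The mean level of the macrophage markers was 6.33 to 6.70 in the TIC arrays and 9.63 to 12.15 in the CD24- arrays. Cd24a, the gene of the antigen named in the sort, was at 12.26, 12.06, 12.50 and 12.47 in the TIC arrays, against 10.53, 11.01, 12.12 and 11.20 in the CD24- arrays, and so was bright in the fraction labelled CD24- too. Its difference of 1.11 ± 0.29 did not pass the test (limma adjusted p = 0.148), nor with the tumor as a replicate block (limma adjusted p = 0.0691), although a random block called it (limma adjusted p = 0.0293). The mean level of luminal epithelial markers was 10.75 to 10.91 in the TIC arrays and 9.88 to 10.77 in the CD24- arrays. In such mixtures a change in the share of cells of a type cannot be told apart from a change in RNA per cell.

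Respiratory chain and ATP synthase transcripts were slightly higher on average in the TIC fraction, and no single member passed the test. The mean difference, TIC minus CD24-, was above 0 for 76 of the 81 members and ranged from -0.37 to 0.55, with a median of 0.19. Over all 19938 genes the median was 0.04 and 59.5% were above 0. Among the genes at or above the median level of the array, to which 73 of the 81 members belong, the median was 0.11 and 69.2% were above 0. Bright genes in general were thus shifted in the same direction, by less.

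Of the 81 members 0 rose and 0 fell at an adjusted p under 0.05 (limma, Benjamini-Hochberg over all genes), where 0.0502% of all genes rose and 0.742% fell. With the tumor as a replicate block the member counts were again 0 and 0, against 0.863% and 1.09% of all genes. The lowest adjusted p among members was 0.184 without the block (limma) and 0.0821 with it. At an unadjusted p under 0.05, 7 members were higher and 1 lower in the TIC fraction, which is 8.64% and 1.23% of them, beside 8.02% and 6.24% of all genes. With the block these counts were 12 and 2, beside 14.2% and 8.08% of all genes. The share of members past the unadjusted threshold was thus near that of all genes on the higher side. Among genes at or above the median level the higher share was 11.8%, and 21.5% with the block. The members, at 8.64% and 14.8%, were below those shares. No member's mean difference reached 1.5-fold, whereas those of 1580 genes did.

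**Figure D1:**
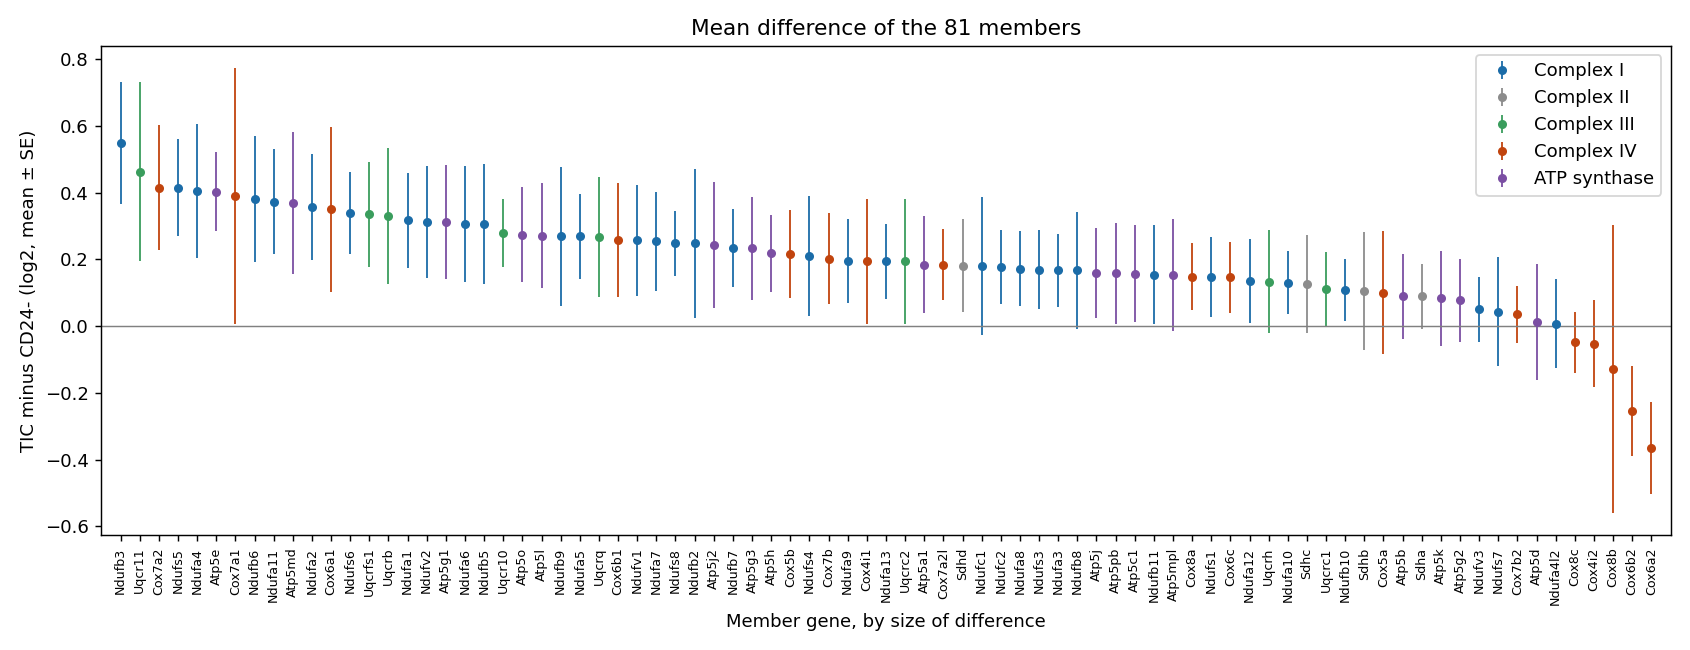
Mean difference between the TIC and CD24- fractions (log2, y axis) for each of the 81 member genes (x axis, sorted by size), with limma standard errors as bars and complexes by colour. The values run from 0.55 for Ndufb3 to -0.37 for Cox6a2, and the 5 members below 0 are complex IV isoforms of restricted tissues.

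The differences varied more between tumors than between complexes. The median over the 81 members was 0.49 for N251, 0.23 for N260, 0.12 for N283 and -0.04 for the pool. The TIC fraction had the higher value for 74 of the 81 members in N251, for 77 in N260, for 61 in N283 and for 25 in the pool. Of all 19938 genes the TIC value was the higher for 11826, 12877, 10431 and 10484, in that order. Genes at or above the median level had medians of 0.19, 0.09, 0.08 and 0.05. In the pool 6243 of these 9969 genes were higher, so the members there went against the bright genes. For 68 members the largest of the 4 differences was that of N251, which is 84.0% of members, beside 37.9% of all genes. Members higher in all 4 tumors numbered 18, or 22.2%, beside 23.2% of all genes and 34.4% of the genes at or above the median level. Members lower in all 4 numbered 2, Cox6a2 and Cox6b2, beside 11.8% of all genes and 10.8% of the genes at or above the median level.

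The CD24- array of N251 stood apart. Its members lay at a median of -0.42 from their mean over the 8 arrays, whereas the medians of the other 7 arrays were between -0.09 (CD24- of N260) and 0.20 (TIC of N283). It was the lowest of the 8 arrays for 64 members, or 79.0%, and for 26.5% of all genes. It was the highest for 4 members and for 5144 of the 19938 genes. Over all genes it was thus the array most often at either extreme, whereas the members lay mostly at the low one. The TIC arrays lay at 0.08, 0.15, 0.20 and 0.0003 in N251, N260, N283 and the pool, against -0.42, -0.09, 0.06 and 0.02 in the CD24- arrays. The groups overlapped, since the CD24- arrays of N283 and the pool were above the TIC array of the pool. Without the CD24- array of N251 the median difference of the members was 0.10, with 69 of 81 above 0, beside 0.05 over all genes. Without both N251 arrays the members had a median of 0.08, with 74 of 81 above 0, beside 0.03 over all genes. Genes at or above the median level had medians of 0.09, 0.08 and 0.05 in N260, N283 and the pool, so the members were then near the bright genes.

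**Figure D2:**
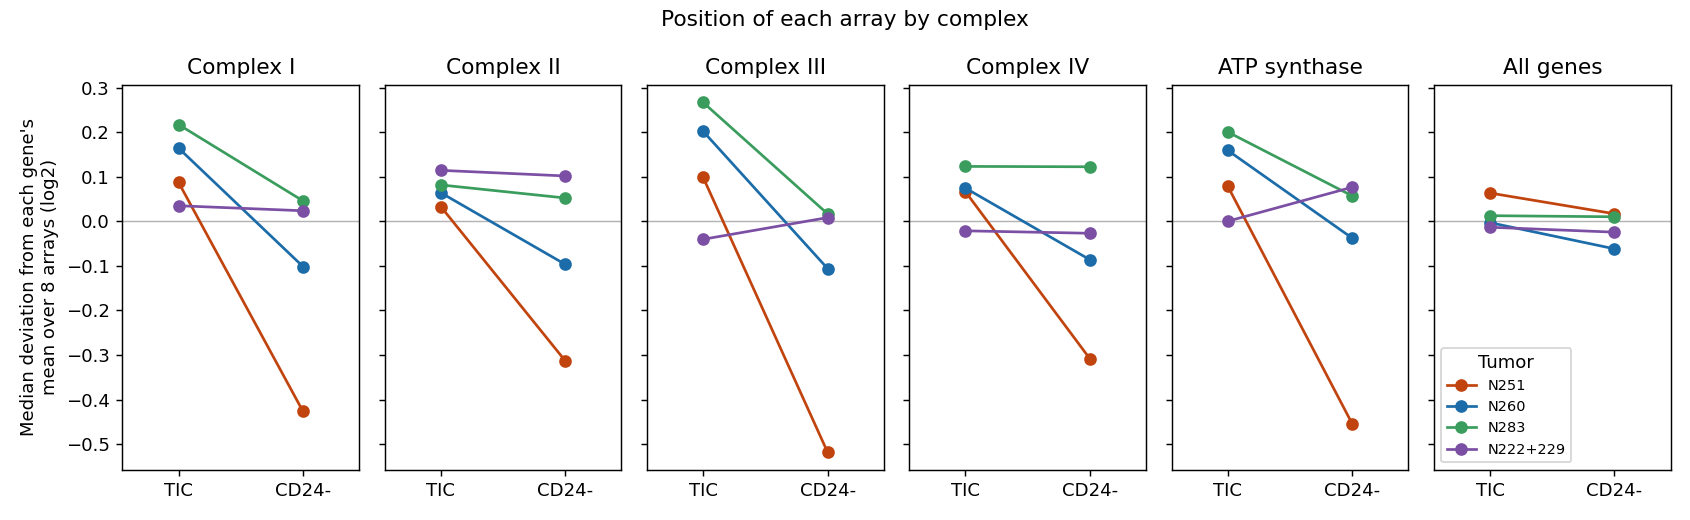
Median deviation of each array from the genes' means over all 8 arrays (log2, y axis), for the TIC and the CD24- array of each tumor joined by a line, in panels for each complex and for all genes. The CD24- array of N251 lies between -0.52 and -0.31 in the 5 complexes and at 0.02 over all genes, while the other arrays stay between -0.11 and 0.27 in every complex.

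The spread of the members within a fraction was also compared with and without N251. A member's SD had a median of 0.15 over the TIC arrays and 0.26 over the CD24- arrays, against 0.15 and 0.20 over all genes. The CD24- fraction had the larger SD for 65 of the 81 members, or 80.2%, beside 65.3% of all genes and 75.2% of the genes at or above the median level. Without both N251 arrays, a setting chosen after seeing the data, the median SD was 0.14 in each fraction, and the CD24- fraction had the larger SD for 39 of the 81 members, or 48.1%, beside 57.7% of all genes. Leaving out an array already seen to be low for most members narrows the CD24- spread by design, so these values are a description and no test.

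Complex I, the NADH dehydrogenase, was higher in the TIC fraction on average for all 35 of its members, none of which passed the test. Its median difference was 0.23, and by tumor it was 0.53 for N251, 0.28 for N260, 0.14 for N283 and -0.04 for the pool. Ndufb3, an accessory subunit of the membrane arm, had the largest difference of all members. It was at 7.89, 7.95, 7.98 and 8.16 in the TIC arrays of N251, N260, N283 and the pool, against 6.91, 7.38, 7.71 and 7.77 in the CD24- arrays. Every TIC array was above every CD24- array, and the difference was 0.55 ± 0.18 (SE, limma adjusted p = 0.234, and 0.102 with the block).

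The same separation of the groups was seen for 5 of the 81 members, Ndufb3, Ndufs6, Ndufs8, Uqcr10 and Atp5e, or 6.17%, beside 5.19% of all genes, and in the opposite direction for 0, beside 4.68% of all genes. Of the 9969 genes at or above the median level, 785 were apart with TIC above and 484 with TIC below. Ndufs8, an iron-sulfur subunit of the complex I core, was at 10.49, 10.56, 10.60 and 10.55 in the TIC arrays, against 10.10, 10.29, 10.42 and 10.40 in the CD24- arrays. The groups were narrowly apart, by 0.25 ± 0.10 on average (limma adjusted p = 0.299).

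The nuclear core subunits, which carry the flavin and the iron-sulfur clusters, had a median near that of the accessory ones, a difference that was not tested. Of the 7 core genes listed, 6 were measured with a single symbol, and their median difference was 0.21, against 0.24 for the 28 other complex I members without Ndufa4l2. Ndufv1, the NADH-binding subunit, differed by 0.26, Ndufv2 by 0.31, Ndufs3 by 0.17 and Ndufs1 by 0.15. Ndufs7, which holds the last cluster before ubiquinone, was at 12.29, 12.33, 12.29 and 12.77 in the TIC arrays, against 12.11, 12.28, 12.36 and 12.75 in the CD24- arrays. Those levels followed the tumor, with the pool highest in both fractions, and the difference was 0.04 ± 0.16 (limma adjusted p = 0.949). With the tumor as a block its SE was 0.08 (limma adjusted p = 0.777). Without the CD24- array of N251 the difference of Ndufs7 was -0.044.

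Ndufs5, an accessory subunit on the intermembrane side, ran against the tumor order. It was at 6.93, 7.05, 7.39 and 7.08 in the TIC arrays, against 7.04, 6.52, 6.64 and 6.59 in the CD24- arrays. Its difference was -0.11 in N251 and 0.53, 0.75 and 0.49 in N260, N283 and the pool, with a mean of 0.42 ± 0.14 (limma adjusted p = 0.247). Without the N251 arrays and with the tumor as a block, Ndufs5 rose by 0.59 (limma adjusted p = 0.0293). That setting was chosen after seeing the data and left out the only tumor with a negative difference, so its call is no support for a rise. There 360 of all genes rose and 480 fell, against 172 and 218 with the block on all arrays. Ndufs5 was also called when arrays were weighted (limma adjusted p = 0.0390), where 191 genes rose and 778 fell. A further row that the annotation gives to both Ndufs5 and the pseudogene Ndufs5-ps disagreed in N251, where its difference was 0.76, with 0.53, 0.54 and 0.32 in the other tumors. Signal of the gene and its copy cannot be told apart in that row.

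Ndufa4 carries a complex I name but its protein is now known as a subunit of complex IV. It was at 9.62, 9.56, 9.74 and 9.28 in the TIC arrays, against 8.54, 9.23, 9.49 and 9.32 in the CD24- arrays. The difference of 1.07 in N251 was the largest of complex I in that tumor, and the mean was 0.41 ± 0.20 (limma adjusted p = 0.401). Its paralog Ndufa4l2, known as a target of the hypoxia response, was at 6.20, 6.43, 6.15 and 5.88 in the TIC arrays, against 6.36, 6.12, 6.15 and 5.99 in the CD24- arrays. These values overlapped throughout, with a mean difference of 0.01 ± 0.13 (limma adjusted p = 0.994).

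Complex II, succinate dehydrogenase, links the citric acid cycle to the chain and is the complex with no subunit encoded in mitochondrial DNA. Its 4 members had the smallest median difference of the 5 groups, 0.12, and the median was 0.34 for N251, 0.14 for N260, 0.04 for N283 and 0.04 for the pool. Sdha, the flavoprotein, was at 10.76, 10.82, 10.90 and 10.77 in the TIC arrays, against 10.54, 10.69, 10.81 and 10.84 in the CD24- arrays. The groups overlapped, and the difference was 0.09 ± 0.10 (limma adjusted p = 0.740). The membrane anchors Sdhc and Sdhd differed by 0.13 and 0.18. Sdhb, the iron-sulfur subunit, was at 9.83, 9.83, 9.94 and 9.42 in the TIC arrays, against 9.96, 9.59, 9.82 and 9.22 in the CD24- arrays, so that in N251 it was the only subunit of the complex that was lower in the TIC fraction.

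Complex III, the cytochrome bc1 complex, had the largest median difference, 0.27, with 0.51 for N251, 0.27 for N260, 0.23 for N283 and -0.06 for the pool. Uqcr11, a small subunit, was at 10.52, 10.83, 10.91 and 10.35 in the TIC arrays, against 9.35, 10.32, 10.69 and 10.38 in the CD24- arrays. The low CD24- value of N251 gave a difference of 1.16 there, and the mean was 0.46 ± 0.27 (limma adjusted p = 0.477). Uqcrfs1, the Rieske iron-sulfur protein, differed by 0.34 ± 0.16, with 0.83 in N251 and -0.10 in the pool (limma adjusted p = 0.375). Uqcr10 was higher in all 4 tumors, by 0.46, 0.38, 0.24 and 0.03, and its arrays did not overlap between fractions (mean 0.28 ± 0.10, limma adjusted p = 0.272). The core protein gene Uqcrc1 differed least, by 0.11, and Uqcrb and Uqcrq by 0.33 and 0.27.

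Complex IV, cytochrome c oxidase, held the widest range of differences, from -0.37 to 0.42. Its 17 members had a median difference of 0.15, and the 10 members without the restricted isoforms had 0.20. Cox7a2, a general small subunit, was at 10.40, 10.41, 10.46 and 9.94 in the TIC arrays, against 9.40, 9.96, 10.22 and 9.96 in the CD24- arrays. The pool overlapped with the other group, and the difference was 0.42 ± 0.19 (limma adjusted p = 0.360). Cox6c, another general subunit, differed by 0.15, and Cox7a2l, a factor of respiratory supercomplexes rather than a plain subunit, by 0.18 with a positive value in all 4 tumors. A further, dimmer row of Cox7a2l differed by only 0.04 on average and was negative in N283 (-0.08).

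**Figure D3:**
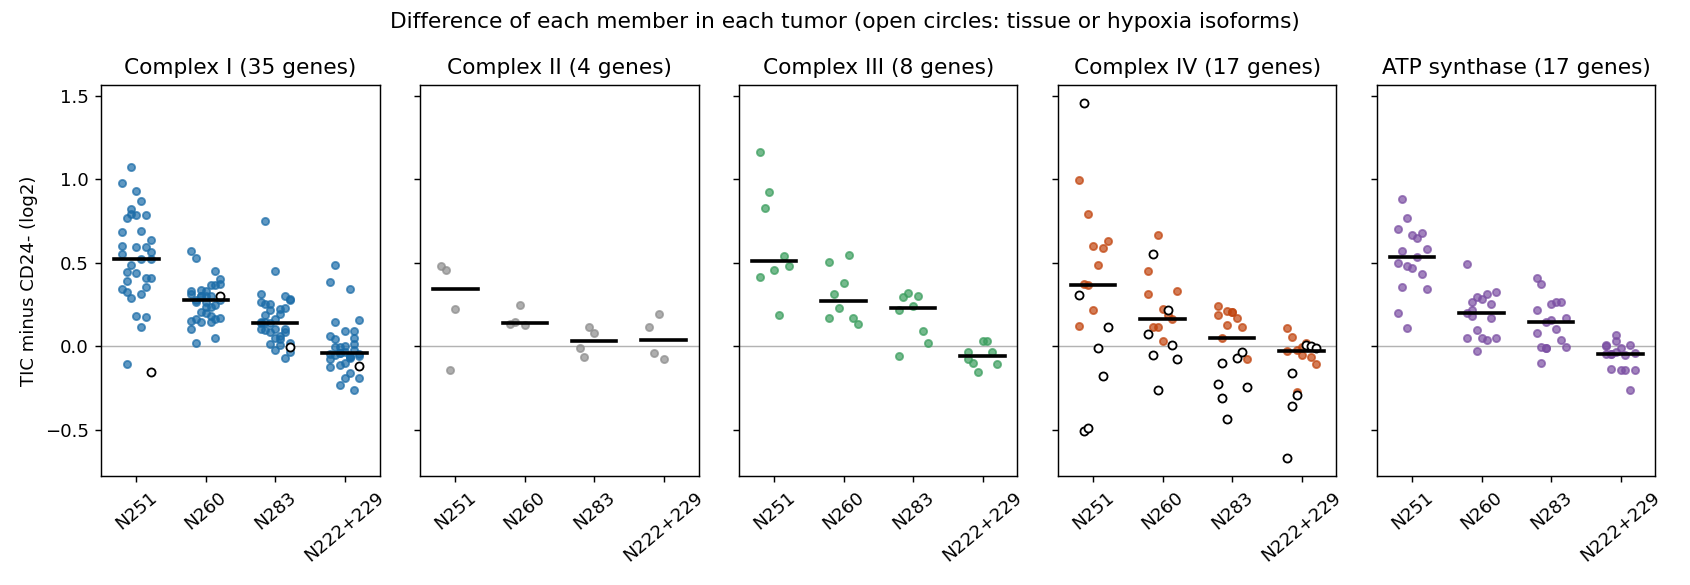
Difference of every member between the TIC and the CD24- fraction (log2, y axis) in each tumor (x axis), in a panel for each complex, with black bars for the medians. Filled points are general subunits and open circles the 8 restricted isoforms. Medians lie between 0.34 and 0.54 in N251 and between -0.06 and 0.04 in the pool.

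The 8 restricted isoforms, 7 of complex IV and Ndufa4l2, had a median difference of -0.05, with -0.08 for N251, 0.04 for N260, -0.16 for N283 and -0.14 for the pool. The 73 other members had 0.20, all of them above 0. The isoforms were not uniform, since Cox7a1 at 0.39 had the second largest difference of complex IV, and the contrast itself was not tested. Only 2 of the 8 isoforms reached the median level of the array, against 71 of the 73 others. The part of brightness in it was not tested either.

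Cox6a2, the heart and skeletal muscle form of subunit VIa, had the lowest difference of all members. It was at 7.44, 7.13, 7.11 and 7.16 in the TIC arrays, against 7.93, 7.39, 7.55 and 7.45 in the CD24- arrays. It was lower in every tumor, with a mean difference of -0.37 ± 0.14 (limma adjusted p = 0.283, and 0.0821 with the block). The groups overlapped, since the TIC array of N251 was above the CD24- array of N260. Its general partner Cox6a1 was at 11.29, 11.55, 11.53 and 10.54 in the TIC arrays, against 10.50, 10.88, 11.31 and 10.81 in the CD24- arrays, a difference of 0.35 ± 0.25 (limma adjusted p = 0.567).

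Cox6b2, the testis form of subunit VIb, was at 6.69, 6.62, 6.65 and 6.48 in the TIC arrays, against 7.20, 6.68, 6.96 and 6.64 in the CD24- arrays. It was also lower in each tumor (-0.26 ± 0.13, limma adjusted p = 0.430), while its partner Cox6b1 differed by 0.26. The testis forms Cox7b2 and Cox8c and the lung form Cox4i2 differed by 0.04, -0.05 and -0.05, and their partners Cox7b, Cox8a and Cox4i1 by 0.20, 0.15 and 0.19.

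Cox7a1 and Cox8b, forms of striated muscle that are also known from brown fat, had differences of both signs among the tumors. Cox7a1 was at 8.86, 9.07, 8.81 and 9.20 in the TIC arrays, against 7.40, 8.51, 8.91 and 9.56 in the CD24- arrays. Its difference therefore ran from 1.46 in N251 to -0.35 in the pool (mean 0.39 ± 0.38, limma adjusted p = 0.709), and it was -0.0097 without the CD24- array of N251. Cox8b was at 7.27, 7.24, 7.66 and 8.32 in the TIC arrays, against 6.96, 7.17, 7.89 and 8.99 in the CD24- arrays. The pool was highest in both fractions, and the mean difference was -0.13 ± 0.43 (limma adjusted p = 0.941), with an SE of 0.17 with the block (limma adjusted p = 0.697). Without the CD24- array of the pool it was 0.29.

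The mean level of 8 skeletal muscle markers was 6.75, 6.54, 6.55 and 6.19 in the TIC arrays, against 6.65, 6.45, 6.64 and 6.36 in the CD24- arrays, lowest in the pool where Cox8b was highest. Ucp1, the uncoupling protein of brown fat, stayed between 5.87 and 6.31 on all arrays. The mean level of 8 adipocyte markers was 6.25, 6.11, 6.10 and 5.92 in the TIC arrays, against 6.71, 6.44, 6.39 and 6.11 in the CD24- arrays. Of these markers 0 were called without the block, and 1 fell with it, Lpl, a lipoprotein lipase that macrophages also make (-2.22, limma adjusted p = 0.0561, and 0.0265 with the block). The part of fat or muscle cells in the isoform levels was not tested.

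**Figure D4:**
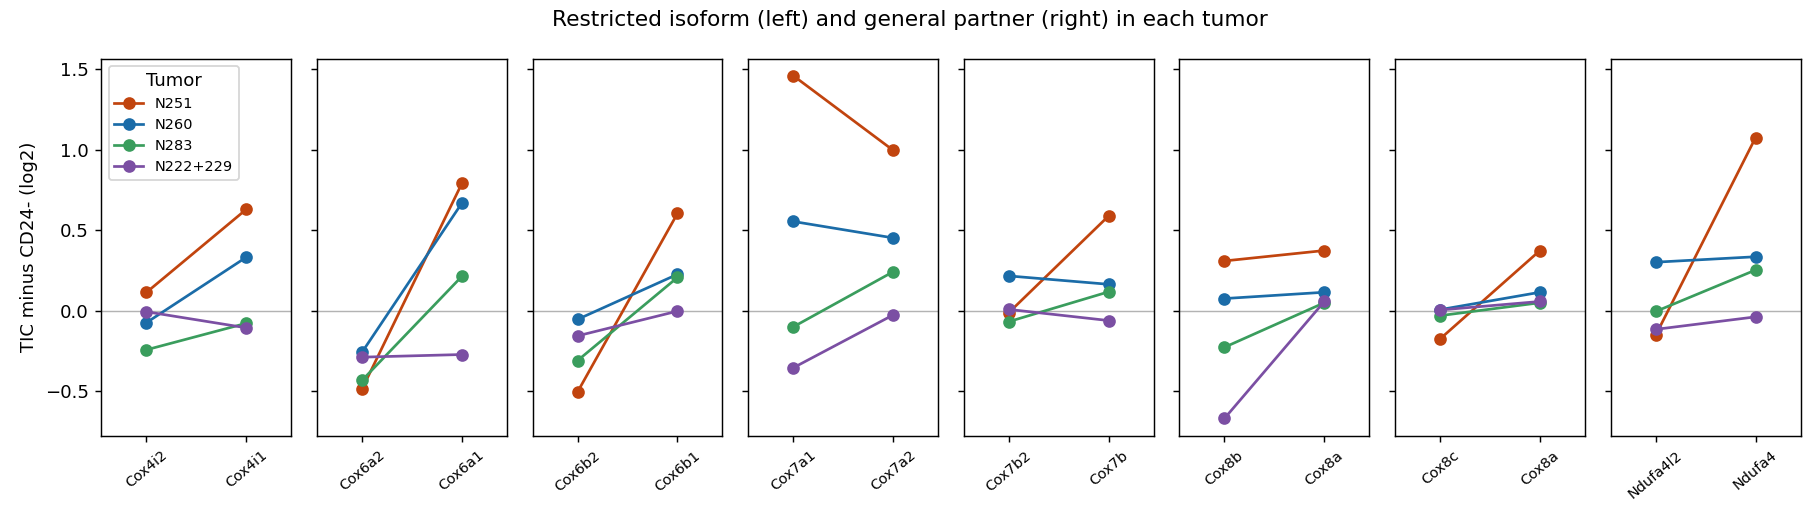
Difference between the TIC and CD24- fractions (log2, y axis) of each restricted isoform (left) and its general partner (right), with a line for each tumor. In N251 the line rises from isoform to partner for each pair but Cox7a1 and Cox7a2, where the values are 1.46 and 1.00.

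ATP synthase turns the proton gradient into ATP. All 17 of its members were above 0 on average, with a median of 0.18, and by tumor the median was 0.54 for N251, 0.20 for N260, 0.15 for N283 and -0.04 for the pool. The catalytic head genes Atp5a1 and Atp5b differed by 0.18 ± 0.15 and 0.09 ± 0.13 (limma adjusted p = 0.620 and 0.824). The difference of Atp5b was -0.023 without the CD24- array of N251.

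Of the central stalk, Atp5e had the lowest p of all members and Atp5d the smallest difference of ATP synthase. Atp5e was at 9.06, 8.83, 8.75 and 8.61 in the TIC arrays, against 8.35, 8.33, 8.34 and 8.60 in the CD24- arrays. The pool arrays differed by only 0.006, and the difference was 0.40 ± 0.12 (limma adjusted p = 0.184), while with array weights Atp5e was called (0.45, limma adjusted p = 0.0312). Atp5d was at 12.94, 12.98, 12.95 and 13.46 in the TIC arrays, against 12.83, 13.01, 12.96 and 13.49 in the CD24- arrays. Its difference was 0.01 ± 0.17 (limma adjusted p = 0.991), with an SE of 0.07 with the block (limma adjusted p = 0.947). With cyclic loess the difference was -0.080.

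The rotor ring is built from a single mature protein that Atp5g1, Atp5g2 and Atp5g3 all encode. Atp5g1 was at 11.98, 12.06, 12.11 and 12.08 in the TIC arrays, against 11.21, 11.77, 11.96 and 12.05 in the CD24- arrays, and it was higher in all 4 tumors (0.31 ± 0.17, limma adjusted p = 0.450). Atp5g2 and Atp5g3 differed by 0.08 and 0.23, and in the pool their differences were -0.13 and -0.14. Without N251 the difference of Atp5g2 was -0.016.

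A further 24 rows belong to 16 members, and 0 of them had a mean difference of opposite sign to that of the brightest row. Signs in single tumors could differ, as for Cox7a2l in N283. Another 6 rows name several genes, 3 of them Cox7c with Gm12338, 2 Ndufb4 with Ndufb4b, and 1 Ndufs5 with its pseudogene, and 0 of these were called when all rows were tested. The Cox7c rows differed by 0.19 to 0.21. The Ndufb4 rows differed by 0.19 and 0.13.

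Among other genes of the oxidative machinery, the assembly factors and the coenzyme Q list had the tumor order of the members, whereas the citric acid cycle, biogenesis and carrier lists had not. Of 43 measured assembly factors 0 were called, the median was 0.16, and it was 0.30 for N251, 0.17 for N260, 0.12 for N283 and 0.04 for the pool. Of these 43 factors 18 were higher and 1 lower in all 4 tumors. Of all genes 23.2% were higher and 11.8% lower in all 4, and of genes at or above the median level 34.4% and 10.8%. Ndufaf2, a complex I assembly factor with the smallest p of the list, differed by 0.29 ± 0.11 (limma adjusted p = 0.281), most in N283 (0.68). Of 17 genes for electron carriers and coenzyme Q synthesis 0 were called, with a median of 0.22. Coq7, a hydroxylase of coenzyme Q synthesis, was at 7.67, 7.63, 7.75 and 7.40 in the TIC arrays, against 6.87, 7.27, 7.34 and 7.10 in the CD24- arrays. These groups did not overlap (0.47 ± 0.13, limma adjusted p = 0.157), and Coq7 was not called with the replicate block (limma adjusted p = 0.0924) but was with a random block (limma adjusted p = 0.0346).

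Of 16 measured genes of the citric acid cycle and pyruvate dehydrogenase 0 were called, with a median of 0.28 that was 0.51 for N251, 0.20 for N260, 0.29 for N283 and 0.06 for the pool. Sucla2, a succinate-CoA ligase subunit, differed by 0.40 ± 0.15 (limma adjusted p = 0.268). Of 17 genes of mitochondrial biogenesis and mtDNA expression 0 were called and the median was 0.07, with 0.26 for N251 and 0.04 for N260. Ssbp1, which coats single-stranded mtDNA, differed by 0.38 ± 0.10 and was higher in all 4 tumors (limma adjusted p = 0.145, with 0.0929 for the replicate block and 0.0306 for a random block). Of 9 carriers, channels and uncouplers 0 were called, and Slc25a4, an ADP/ATP carrier, differed by 0.29 (limma adjusted p = 0.251). The random block called 2.16% of all genes as higher and 3.04% as lower, and 0 of the 81 members.

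Beside the genes of rows with several symbols, the symbol rule misses the subunits Ndufab1 and Cyc1, and Atpif1, the ATPase inhibitor. All 3 were higher in each tumor, with mean differences of 0.36, 0.27 and 0.17, and 0 were called. Of 26 listed genes in mitochondrial DNA 2 had rows with a single symbol, and each of these was read from the brighter of its 2 rows. ND3 of complex I was at 12.10, 12.19, 12.20 and 12.01 in the TIC arrays, against 11.91, 12.04, 11.93 and 12.15 in the CD24- arrays (0.11 ± 0.09, limma adjusted p = 0.638). COX2 of complex IV was at 13.47, 13.56, 13.57 and 13.21 in the TIC arrays, against 13.49, 13.57, 13.42 and 13.34 in the CD24- arrays. In N251 these transcripts differed by 0.19 and -0.02, while the nuclear members had a median of 0.49.

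Leukocyte markers had the same order of tumors as the members. The macrophage markers had a median difference of -6.20 for N251, -5.42 for N260, -4.51 for N283 and -3.43 for the pool, and the pan-leukocyte markers had -5.35, -4.93, -3.86 and -2.42. The 10 luminal epithelial markers had 1.13, 0.26, 0.04 and 0.11, with 0 called, and Epcam, an epithelial surface antigen, was at 12.19, 11.99, 12.10 and 12.07 in the TIC arrays, against 11.06, 11.79, 11.91 and 11.99 in the CD24- arrays. Markers of dividing cells had 0.87, 0.89, 1.40 and 1.02, higher in all 4 tumors for all 9 genes and largest in N283. Of these 9 markers 0 were called without the block and 8 rose with it. Of the 7 T and NK cell markers 2 fell, with a median of -2.43. Of the fibroblast, endothelial, basal or myoepithelial and red blood cell markers 0 were called without the block, with medians of -0.22, -0.19, 0.03 and -0.05. With the block 1 basal or myoepithelial marker rose, Oxtr, the oxytocin receptor (1.21, limma adjusted p = 0.158, and 0.0457 with the block). The part of these cell types in the member differences was not tested, and 4 pairs are too few for a correlation.

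**Figure D5:**
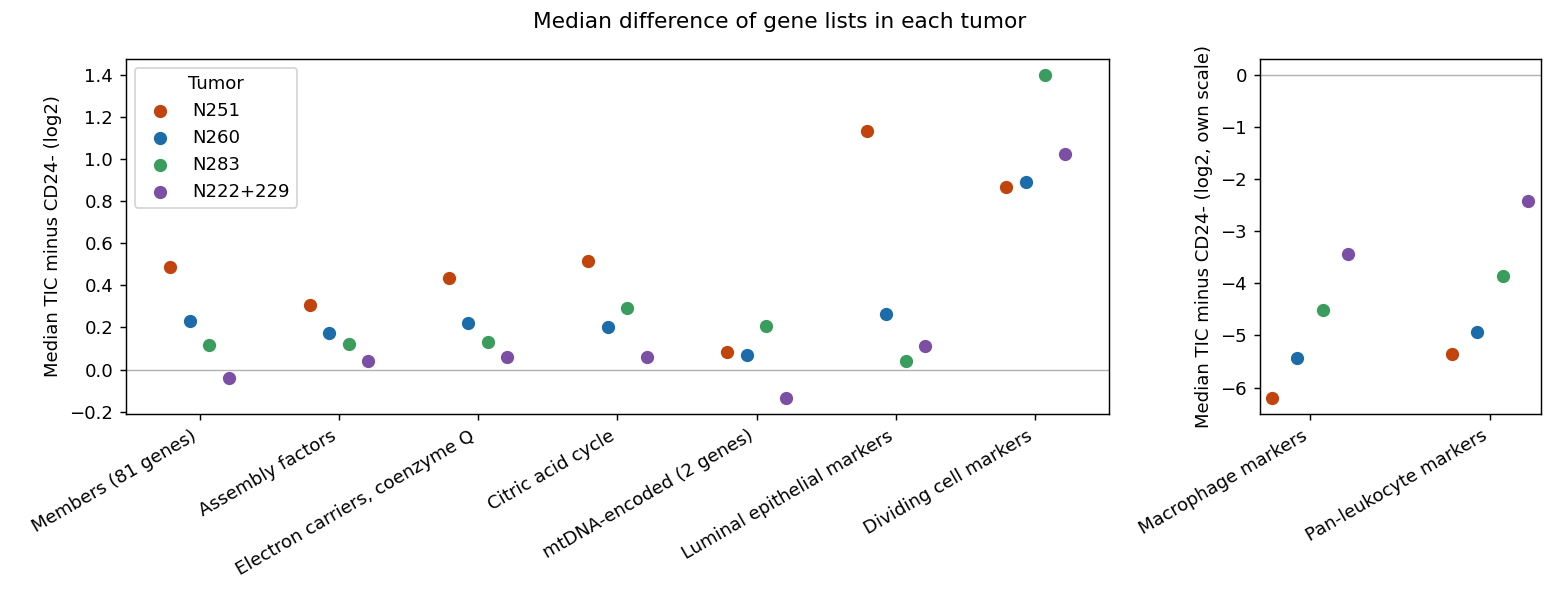
Median difference between the TIC and CD24- fractions (log2, y axis) of gene lists in each tumor. The right panel has its own scale for macrophage and leukocyte markers, which lie between -6.20 and -2.42. Members, assembly factors and coenzyme Q genes share the tumor order N251, N260, N283 and the pool, whereas dividing cell markers are highest in N283 at 1.40.

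Promoters were read for what members share beyond their products. RefSeq promoters of 300 bases around the start site (GRCm38.p6) were found for 66 of the 81 members. Known regulators of nuclear respiratory genes are NRF1, the ETS factor GABP and YY1. They were searched on both strands as GCATGCGC for the NRF1 core, CCGGAAG for the ETS site and AAGATGGCG for YY1. The NRF1 core was present in 10 of the 66 members, or 15.2%, and in 2.71% of all 32851 promoters and 4.29% of measured genes. The ETS motif was present in 17, or 25.8%, beside 8.86% of promoters and 13.6% of measured genes, and the YY1 motif in 7, or 10.6%, beside 1.40% and 2.29%. Of the members 28 held at least 1 of the 3 motifs.

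Members with the NRF1 core had a median of 0.22 and those without 0.21. For the ETS motif the medians were 0.23 and 0.20, and for YY1 0.20 and 0.22. None of the 3 motifs was found in the 4 restricted isoforms with a promoter in the table, which had 2 to 10 CpG dinucleotides in their 300 bases (median 8.5), against 5 to 43 in general members (median 19) and 0 to 67 in all 32851 promoters (median 7). The values of the general members are over 67 promoters, since some members have more than 1. Their median thus lay above that of all promoters and the median of the isoforms near it, while single promoters of both kinds lay below it. A match is a description of letters only, and no match says only that these letters are not in this window.

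The following promoters show a general subunit with both NRF1 and ETS letters and the largest complex III difference (Uqcr11), the general partner of the lowest member (Cox6a1), and the general and muscle forms of subunit VIII (Cox8a and Cox8b). Capitals mark matches to the motifs on either strand, and in Cox6a1 the NRF1 core matches on both strands overlap. Uqcr11 lies on the minus strand at chr10:80406772-80407071, Cox6a1 on the minus strand at chr5:115348909-115349208, Cox8a on the minus strand at chr19:7217567-7217866 and Cox8b on the minus strand at chr7:140900397-140900696, all in GRCm38.p6.
Uqcr11: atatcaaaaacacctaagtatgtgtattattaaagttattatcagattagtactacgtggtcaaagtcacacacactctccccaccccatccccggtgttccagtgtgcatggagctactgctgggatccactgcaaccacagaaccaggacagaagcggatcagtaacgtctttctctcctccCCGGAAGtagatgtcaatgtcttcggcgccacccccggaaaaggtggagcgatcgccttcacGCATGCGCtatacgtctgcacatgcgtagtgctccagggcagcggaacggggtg
Cox6a1: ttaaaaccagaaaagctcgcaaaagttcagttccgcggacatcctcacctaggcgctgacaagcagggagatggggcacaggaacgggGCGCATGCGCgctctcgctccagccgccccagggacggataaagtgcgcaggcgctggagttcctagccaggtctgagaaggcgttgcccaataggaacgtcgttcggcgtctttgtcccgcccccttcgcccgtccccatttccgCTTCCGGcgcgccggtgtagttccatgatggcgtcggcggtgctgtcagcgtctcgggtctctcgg
Cox8a: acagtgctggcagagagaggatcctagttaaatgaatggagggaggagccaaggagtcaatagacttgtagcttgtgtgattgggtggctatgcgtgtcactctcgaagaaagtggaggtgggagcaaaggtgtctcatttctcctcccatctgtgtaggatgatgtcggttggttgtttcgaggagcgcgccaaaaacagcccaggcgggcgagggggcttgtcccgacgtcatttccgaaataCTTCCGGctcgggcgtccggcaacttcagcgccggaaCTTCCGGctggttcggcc
Cox8b: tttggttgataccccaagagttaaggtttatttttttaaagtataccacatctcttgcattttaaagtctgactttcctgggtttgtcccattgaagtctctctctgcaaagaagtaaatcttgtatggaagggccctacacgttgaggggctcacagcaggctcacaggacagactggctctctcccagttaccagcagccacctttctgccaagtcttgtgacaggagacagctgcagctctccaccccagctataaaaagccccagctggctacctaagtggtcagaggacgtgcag
Cox8a has 2 ETS matches and 19 CpG dinucleotides, and Cox8b has 0 matches and 2 CpG dinucleotides. Cox8a differed by 0.37, 0.11, 0.05 and 0.06 in N251, N260, N283 and the pool, and Cox8b by 0.31, 0.08, -0.23 and -0.67.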

How the data were processed

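The authors deposited log2 intensities for 8 arrays, 35556 rows each, made with RMA and Partek per the submitters' processing notes; their versions and settings and the genome build are not stated there. Array medians were 7.03 to 7.18, and no pair of arrays correlated above 0.991. Of the rows, 21789 carried 1 symbol in the platform annotation, and the brightest row of each gene left 19938 genes. Differences are TIC minus CD24-, fitted on all genes with limma 3.58.1 (R 4.3.3) with no block and no minimum level, and a call needs a Benjamini-Hochberg adjusted p below 0.05. Tumors pair the arrays per the labels, and deviations of paired arrays correlated at 0.32, 0.43, 0.30 and 0.56 in N251, N260, N283 and the pool, so values with the tumor as a replicate block are given where they bear on a result. The ± values are SEs of the fit without the block, in which differences between tumors count as spread.

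Members and lists were chosen with earlier results of these data known, although the rule for members reads only symbols. Genes named by rule are members called with or without the block (0 here), per complex the members with the largest and smallest difference and the brightest and dimmest, complex II, the restricted isoforms with their partners, the complex I core, and in each other pathway list the called genes or the one of smallest p. Named outside the rule, after values were seen, were Ndufs5, Ndufs6, Uqcr10, Uqcrfs1, Cox7a2l, Atp5a1, Atp5b, Atp5g1, Atp5g2, Atp5g3, Cyc1, Atpif1, COX2, Ucp1, Lpl, Oxtr, Cd24a, Lyz2 and Epcam. Levels of different probe sets depend on the probes as well as on the RNA, and were used to choose rows, to pick the brightest and dimmest members and to class genes as at or above the median level. Precision is limited by having 4 arrays in each fraction.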

Additional observations from a re-analysis of the deposited data

Results flagged for a closer look

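Of 124 groups of 4 arrays checked, 12 held an array far from the other 3. Chance alone flags about 1 in 20, or 6. In the TIC fraction 6 of these were the pool of N222 and N229, with Atp5d at 13.46 (others 12.94 to 12.98), Ndufs7 at 12.77 (12.29 to 12.33), Cox6b1 at 11.24 (11.81 to 11.87), Cox7a2 at 9.94 (10.40 to 10.46), Ndufs3 at 10.26 (10.59 to 10.62) and Lyz2 at 6.99 (6.04 to 6.20). The TIC array of N251 had Cox6a2 at 7.44 (7.11 to 7.16). In the CD24- fraction the array of N251 was low for Uqcrb at 11.06 (11.88 to 12.01), Cox7b at 12.11 (12.59 to 12.67), Atp5g3 at 10.99 (11.49 to 11.53) and Sucla2 at 8.48 (8.98 to 9.03), and the pool had Atp5e at 8.60 (8.33 to 8.35).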

How the results depend on the processing

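The tumor as a replicate block left 0 members called higher and 0 lower (limma), as did every other alternative but 2. Without it, 8 members passed an unadjusted p under 0.05. Array weights called 2 higher, Atp5e and Ndufs5, where 191 genes rose and 778 fell. The replicate block without N251, chosen after seeing the data, called 1, Ndufs5, where 360 genes rose and 480 fell. The cause was not tested. Over all genes 10 rose and 148 fell without the block, 172 and 218 with it, 430 and 606 with a random block, and 0 to 46 and 8 to 583 when arrays or tumors were left out (8 without N260). Complex medians ranged over the alternatives from 0.11 to 0.30 (complex I), -0.0056 to 0.18 (II), 0.15 to 0.36 (III), 0.05 to 0.21 (IV) and 0.06 to 0.29 (ATP synthase). Cyclic loess gave the members a median of 0.07 with 66 of 81 above 0, and all genes -0.0021. Differences near 0 turned in sign. With cyclic loess Atp5d was -0.080, Ndufs7 -0.057, Sdha -0.031, Atp5g2 -0.023, Sdhb -0.019, Uqcrc1 -0.0067 and Atp5b -0.0051. With array weights Atp5d was -0.038 and Ndufs7 -0.0061, and with quantile normalization Cox4i2 was 0.013. The block without N251 gave Atp5d -0.022 and Atp5g2 -0.016. Leaving out arrays or tumors gave -0.023 to 0.17 for Atp5b, -0.11 to 0.15 for Atp5d, -0.016 to 0.16 for Atp5g2, -0.15 to 0.011 for Cox4i2, -0.0097 to 0.71 for Cox7a1, -0.024 to 0.071 for Cox7b2, -0.39 to 0.29 for Cox8b, -0.091 to 0.10 for Ndufa4l2, -0.073 to 0.17 for Ndufs7 and -0.036 to 0.22 for Sdhb. Of the alternatives for named genes, 1218 kept sign and call, 34 turned in sign, 10 gained a call and 1 lost it (Lyz2 without N260). Signal over background was not analysed here, so the dim isoforms carry no detection call.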
